A study of Mus musculus with 10 samples.

Results

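The nuclear genes of oxidative phosphorylation were followed in colon tumors of mice. Members were taken by name: all entries of the expression table whose gene name begins with Nduf, Uqcr, Atp5 or Cox4 to Cox8, together with Sdha, Sdhb, Sdhc and Sdhd. The rule found 89 of the 16875 gene names in the table. It used no measured value. Complex I was represented by 45 names, complex II by 4, complex III by 8, complex IV by 14 and complex V by 18. Of the 89 names, 78 encode subunits. The others are 7 complex I assembly factors (Ndufaf genes), Cox7a2l, a supercomplex factor related to a complex IV subunit, Atp5s and Atp5sl, which carry the Atp5 name without being core parts of the ATP synthase, and the pseudogene Atp5k-ps2. No 2 members had identical values, so each was counted once. Cyc1 and the mitochondrially encoded subunits stand outside the name rule and are described further on.

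Oxidative phosphorylation takes place in the inner mitochondrial membrane. Complexes I and II pass electrons from NADH and succinate to coenzyme Q, complex III passes them on to cytochrome c and complex IV to oxygen, while complexes I, III and IV pump protons that complex V, the ATP synthase, uses to make ATP. Most subunits are encoded in the nucleus and imported, and a few core subunits are encoded by mitochondrial DNA. In the colon, epithelial cells are rich in mitochondria and draw much of their energy from the oxidation of butyrate made by bacteria.

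RNA sequencing covered 10 tumors, macrodissected and frozen, from mice in which tumors had been induced with the mutagen azoxymethane (AOM) and 3 cycles of 2% dextran sulfate sodium (DSS), which inflames the colon. The 5 control tumors carried floxed Wls alleles (Wls flox/flox) with intact Wls, which is required for the secretion of Wnt ligands. Controls were without tamoxifen, unless otherwise stated in the study. The 5 Villin-Wls cKO tumors came from mice in which a tamoxifen-activated Cre driven by the Villin promoter deletes Wls in intestinal epithelium, with 5 tamoxifen injections that began 30 days before tumor collection. Mice entered the regimen at 6 to 10 weeks of age. All mice had a C57BL/6 background, and the study preferred females. The number of mice behind each group of tumors is not stated in the sources used here, so that p-values measure the spread between tumors.

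Wls itself was at 61.3 to 79.9 FPKM (fragments counted per kilobase of a transcript and scaled to the size of the library) in control tumors and at 2.03 to 11.7 FPKM in Villin-Wls cKO tumors. Xist, which is transcribed in female cells, did not exceed 0.420 FPKM in control tumors and was at least 439 FPKM in Villin-Wls cKO tumors. The Y-linked Eif2s3y ranged from 30.4 to 46.6 FPKM in the control group and did not exceed 0.138 FPKM in the Villin-Wls cKO group. Genotype, sex of the tissue and tamoxifen therefore cannot be told apart in any comparison given here. Villin-Wls cKO tumors 2 and 3 stood apart by the squamous keratin Krt5, with 469.5 and 669 FPKM against at most 0.315 FPKM in the other 8 tumors, and the median over the members, the median of each complex and the calls are also given without them. The FPKM of a tumor summed to between 1207683 and 1533885, of which the members made up 1.32% to 2.12%. A single entry, that of Eef1a1, made up 11.1% to 20.5%, less in every Villin-Wls cKO tumor than in every control tumor. The same values stand under another name as well, and the rescaling without the Eef1a1 entries leaves out all such entries. Of the sum without them the members made up 2.23% to 2.77%. The read depth is unknown. Since the tumors were sequenced in bulk, fewer cells of a type and less RNA per cell cannot be told apart.

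All 89 members passed the filter of a mean of at least 0.5 FPKM that left 16757 genes for testing. Most were abundant: 60 members had a mean of at least 100 FPKM over the 10 tumors, and the median over the members was 152 FPKM against 12.2 FPKM over all genes tested. The most abundant name of each complex was Ndufa4 in complex I (a protein now assigned to complex IV), Sdhc in complex II, Uqcr10 in complex III, Cox6b1 in complex IV and Atp5b, the catalytic beta subunit, in complex V. In control tumors the level of Cox6b1 was 1728 ± 154 FPKM (SD, n = 5 tumors), that of Uqcr10 802 ± 38.9 FPKM (SD, n = 5), whereas that of Sdhc was 397 ± 39.6 FPKM (SD, n = 5). At the lower end, 12 members had a mean under 20 FPKM. They included 4 complex I assembly factors (Ndufaf1, Ndufaf5, Ndufaf6 and Ndufaf7) and the tissue-restricted isoforms Cox4i2, Cox6b2, Cox8b and Ndufa4l2. Atp5l, Atp5g2 and Ndufb4, which encode general subunits, were also there, at a mean of 0.539, 2.42 and 12.4 FPKM. A value under a name is that of a locus in the transcript assembly of the authors, and whether transcripts of these genes were counted under another name was not tested. Atp5o, Atp5g2, Ndufb8 and Ndufb2 share all 10 values with at least 1 other gene name, and the reads behind them cannot be split between those names. Atp5k-ps2, at a mean of 262 FPKM, is a copy of Atp5k (mean 399 FPKM), and reads of the 2 may have been split between them.

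In the deposited FPKM, to which the values of this paragraph belong, most members lay slightly higher in Villin-Wls cKO tumors than in control tumors. The size of this shift depended on the scaling, and it was not shared evenly by the tumors, as given below. The median log2 change (difference of mean log2(FPKM + 1), Villin-Wls cKO minus control) over the 89 members was 0.16, or 1.12-fold, with quartiles at 0.06 and 0.24, against a median of 0.0073 over all 16757 genes. The change was above 0 for 77 members (86.5%) and below 0 for 12, where 51.4% of all genes tested were above 0. Only 2 members, Uqcrb and Atp5g1, passed an adjusted p under 0.05 in limma (two-sided, Benjamini-Hochberg over all genes tested), both higher, which is 2.25% of the members against 6.12% of all genes that were called higher. No member was called lower, against 4.75% of all genes. At an unadjusted p under 0.05 in limma, 31 members were higher, where 13.9% of all genes were, and 1 was lower (Cox8b), where 11.9% of all genes were. Uqcrb was the only member whose 5 Villin-Wls cKO tumors all lay above the 5 control tumors, against 5.33% of all genes, and no member lay below without overlap, against 4.76%. The members are abundant genes, and the median over all 1400 genes with a mean of at least 100 FPKM was 0.05, against 0.17 over the 60 members at that level. For genes whose median annotated transcript is shorter than 1000 bases, the median was 0.02 over 6859 genes and 0.15 over 77 members.

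**Figure D1:**
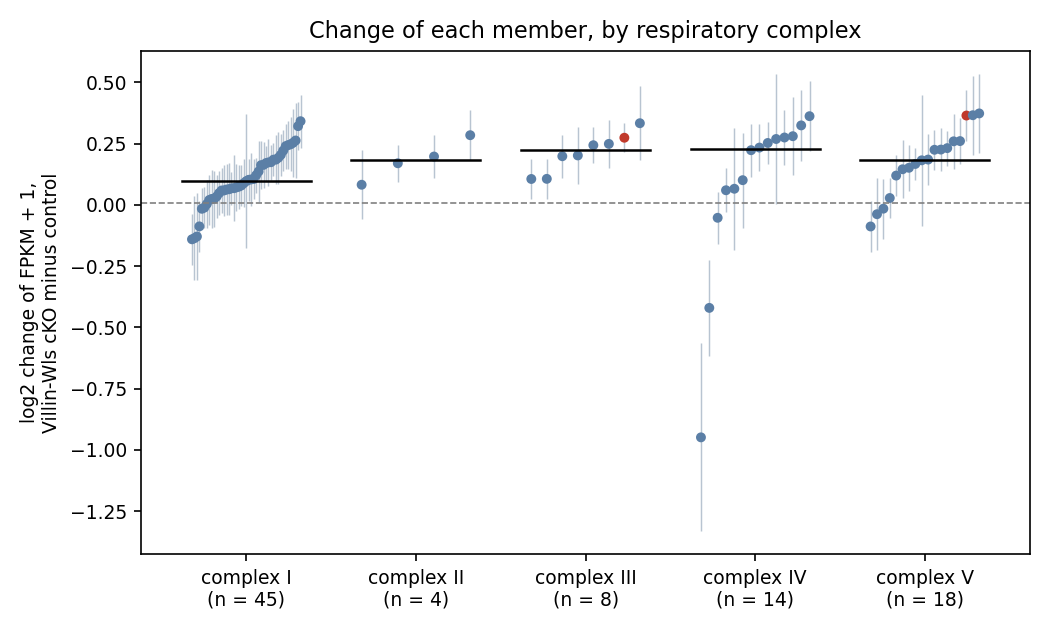
Log2 change of FPKM + 1 (Villin-Wls cKO minus control, y axis) of each of the 89 members, sorted within each respiratory complex; vertical lines are standard errors from limma, black bars the medians (0.10, 0.18, 0.22, 0.23 and 0.18 for complexes I to V), the dashed line the median over all genes tested (0.0073) and red points Uqcrb and Atp5g1, the 2 members with an adjusted p under 0.05. Most points lie above the dashed line, with Cox8b (-0.95) and Cox4i2 (-0.42) far below the rest; with the tumors brought to an equal FPKM sum without the Eef1a1 entries the medians are -0.035, 0.045, 0.083, 0.089 and 0.065.

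The size of the shift depended on how the tumors were scaled to each other. With the tumors brought to an equal FPKM sum, the median over the members was 0.26 and over all genes 0.10, and 18 members were called higher in limma (20.2%, against 8.29% of all genes) and none lower (against 2.49%). With the same rescaling after the Eef1a1 entries had been left out, the medians were 0.028 and -0.11, 48 of the 89 members were above 0 and no member was called. With quantile normalization the medians were 0.025 and -0.046, and 53 members (59.6%) were above 0, against 42.1% of all genes. Under it no member was called, where 5.34% of all genes were called higher and 6.72% lower in limma. With a fitted dependence on GC content and on transcript length taken out of every tumor, the median over 88 members was 0.13, and Ndufa8, Uqcr11 and Uqcrb were called higher and none lower, where 6.71% of all genes were called higher and 5.15% lower in limma. Relative to the median of all genes, the members lay 0.16 higher in the deposited FPKM, 0.16 and 0.14 higher under the 2 rescalings and 0.07 higher after quantile normalization. A rescaling multiplies all values of a tumor by 1 factor and so moves members and all genes nearly alike. Their distance could thus hardly change under the 2 rescalings. It could change with quantile normalization (0.07) and with the GC and length trend removed (0.12). The median of the members was above that of all genes under each of these scalings, while its own size ranged from 0.025 to 0.26. Without Villin-Wls cKO tumors 2 and 3 the median was 0.18, and 73 members (82%) were above 0, against 50% of all genes. Only Uqcrb was called (1.12%, against 3.9% of all genes called higher in limma), and the medians of complexes I to V were 0.14, 0.21, 0.21, 0.25 and 0.19.

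**Figure D2:**
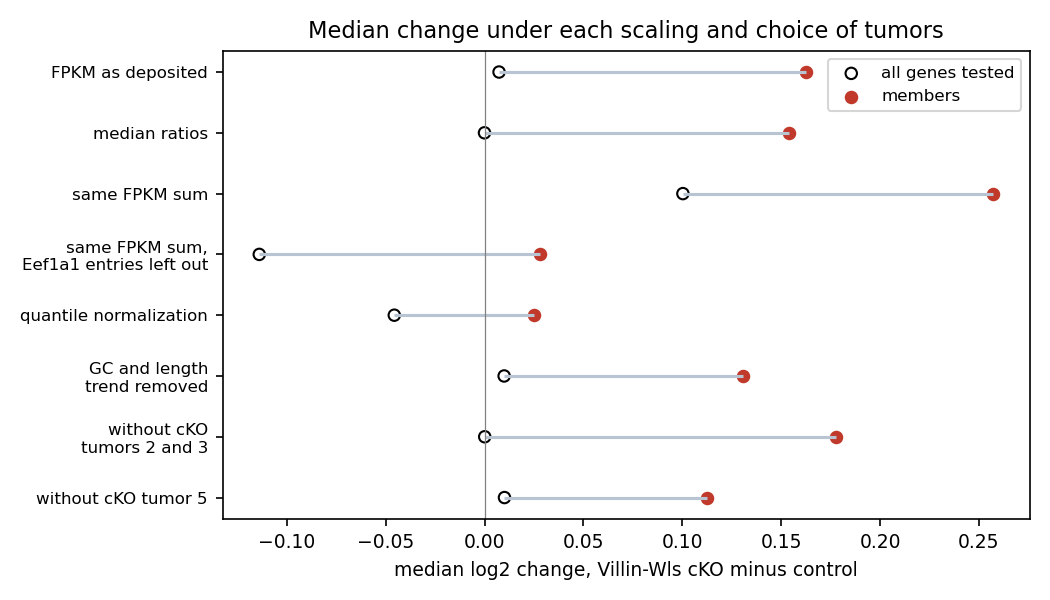
Median log2 change (Villin-Wls cKO minus control, x axis) over the members (filled, red; 88 members with the GC and length trend removed, 89 otherwise) and over all genes tested (open, black) for 8 ways of scaling the values or choosing the tumors; lines join the 2 medians of 1 setting. The members lie to the right of all genes in each row, by 0.07 with quantile normalization and by 0.18 without Villin-Wls cKO tumors 2 and 3, although the members' own median is close to 0 in 2 of the rows. The rows with an equal FPKM sum use 1 factor per tumor, which moves both medians nearly alike.

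The shift was not shared evenly by the Villin-Wls cKO tumors. The median over the members of log2(FPKM + 1) was 7.15, 7.16, 7.18, 7.14 and 7.12 in control tumors 1 to 5 and 7.30, 7.23, 7.39, 7.22 and 7.50 in Villin-Wls cKO tumors 1 to 5. The groups did not overlap in this median, whereas after quantile normalization only Villin-Wls cKO tumor 5 lay above all control tumors. Measured as the median deviation of the members from their control means, Villin-Wls cKO tumors 1 to 5 were at 0.078, 0.043, 0.20, 0.093 and 0.32, and control tumors between -0.023 and 0.062. Tumor 5 was thus the highest, followed by tumor 3, and tumor 2 lay within the range of the control tumors. Tumor 5 held the highest value of all 10 tumors for 47 of the 89 members, and control tumors together for 9. Without it, the median change over the members was 0.11 and 68 members (76.4%) were above 0, against 51.9% of all genes. The median deviation over all genes lay between -0.021 and 0.027 in the 10 tumors, and that of tumor 5 was -0.0072.

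**Figure D3:**
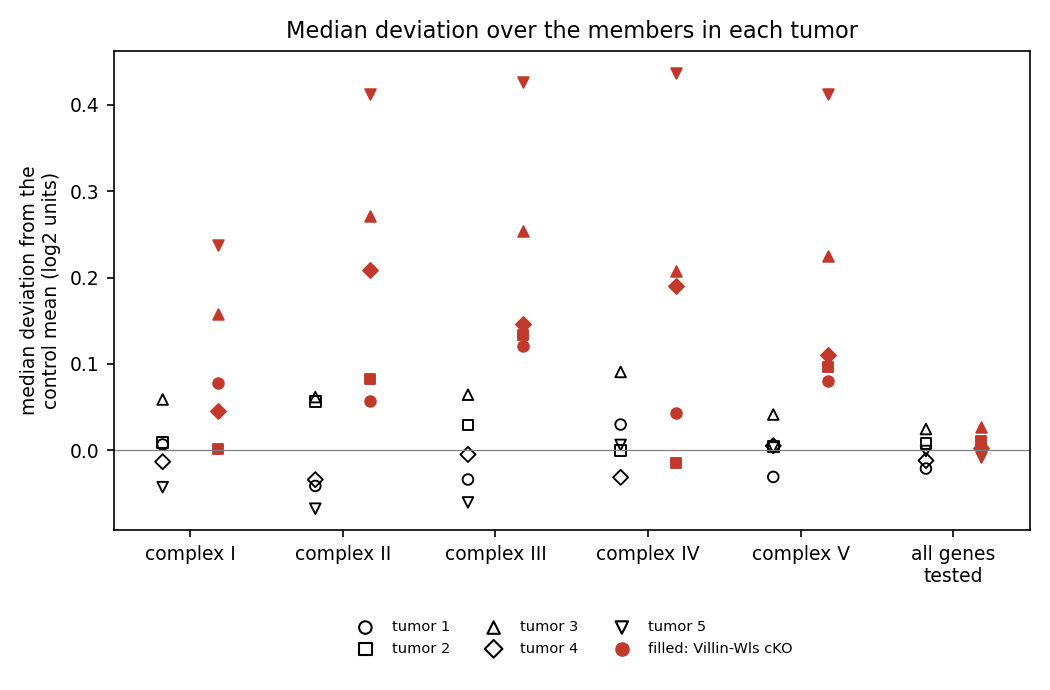
Median deviation from the control mean (log2 units, y axis) over the members of each complex and over all genes tested, for each control tumor (open) and Villin-Wls cKO tumor (filled, red), with a marker shape for each tumor number. Villin-Wls cKO tumor 5 is the highest in every complex, at 0.24 in complex I and between 0.41 and 0.44 in complexes II to V, and is at -0.0072 over all genes; the scale is that of the deposited FPKM, and tumor 2 in complexes I and IV, tumor 1 in complexes II and IV and tumor 4 in complex I lie among the control tumors.

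The subunits varied little among control tumors. For subunits with a mean of at least 20 FPKM, the median coefficient of variation was 7.34% in control tumors, against 10.95% over all genes above that floor. In Villin-Wls cKO tumors it was 12.7%, against 11.7%. These sets were not matched for level: above the floor the median was 168 FPKM over the members and 45.9 FPKM over all genes. They also correlated over the tumors. With group means removed, the median Pearson correlation of a subunit with the mean of the others was 0.70 over 10 tumors, and 66 of the 78 were above 0. This describes values that share a library and its scaling. The median deviation of the members had an SD of 0.035 among control and 0.11 among Villin-Wls cKO tumors, where tumors 5 and 3 were highest. The weight of these tumors in the correlation was not tested. The strongest exceptions were Ndufa4 at -0.65, Cox6b2 at -0.57 and Ndufb4 at -0.50. Uqcrb, the member with the smallest p, was at -0.21, and Sdhb was the highest at 0.94.

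In complex I, the entry point for electrons from NADH, 39 of 45 members had a change above 0, the median was 0.10 (-0.035 with the same FPKM sum without the Eef1a1 entries and 0.017 with quantile normalization), and none was called in limma. The 7 core subunits that the nucleus encodes, which carry the flavin and the iron-sulfur clusters, all lay above 0, with a median of 0.10 and a range from 0.06 to 0.17. Ndufv1, which binds NADH, was at 107 ± 9.57 FPKM (SD, n = 5) in control and 112 ± 15.1 FPKM (SD, n = 5) in Villin-Wls cKO tumors. Ndufs1, the largest iron-sulfur subunit, was at 56.1 ± 3.31 and 60.5 ± 6.98 FPKM (SD, n = 5 each). Neither was called, with log2 changes of 0.06 (SE 0.10) and 0.10 (SE 0.09) and adjusted p of 0.764 and 0.504 in limma. For Ndufv1 3 Villin-Wls cKO tumors lay above all control tumors and 1 below. For Ndufs1 4 lay above and 1 below. Among the 31 accessory subunits, which surround the core, the median was 0.10 and the range ran from -0.14 to 0.34.

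Ndufv3, an accessory subunit of the NADH-oxidizing arm, had the largest change of complex I. It was at 116, 122, 144, 108 and 139 FPKM in control tumors 1 to 5 and at 143, 147, 179, 144 and 186 FPKM in Villin-Wls cKO tumors 1 to 5. Only control tumor 3 reached the range of the Villin-Wls cKO tumors, and the change of 0.34 (SE 0.11) had an adjusted p of 0.0715 in limma. Ndufa8, an accessory subunit of the membrane arm, came next at 0.32 (SE 0.099, adjusted p = 0.0647 in limma). At the other end, Ndufb4, an accessory subunit of the membrane arm, was at 12.3, 12.4, 14.1, 12.3 and 14.1 FPKM in control tumors and at 12.02, 15.1, 10.9, 10.4 and 10.8 FPKM in Villin-Wls cKO tumors. In 4 of the 5 Villin-Wls cKO tumors it lay below all control tumors and in tumor 2 above them, and the change of -0.14 (SE 0.10) was not called (adjusted p = 0.442 in limma). The 7 assembly factors had a median of 0.05, and 2 of them, Ndufaf3 (-0.14, SE 0.17) and Ndufaf6 (-0.13, SE 0.18), were among the 5 lowest members. Ndufa4 was at 756 ± 64.2 and 849 ± 104 FPKM (SD, n = 5 each), and Ndufa4l2, its hypoxia-induced relative, at 0.939 ± 0.485 and 1.15 ± 0.770 FPKM. Ndufa4l2 ranged from 0.288 to 1.97 FPKM within the Villin-Wls cKO tumors, wider than in the control tumors (0.510 to 1.70 FPKM).

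Complex II, succinate dehydrogenase, is also an enzyme of the TCA cycle and is encoded by nuclear genes alone. All 4 subunits had a change above 0 in the deposited FPKM, with a median of 0.18 (0.045 with the same FPKM sum without the Eef1a1 entries and 0.057 with quantile normalization), and none was called in limma. Sdhc, a membrane anchor, was at 397 ± 39.6 FPKM in control and 485 ± 58.9 FPKM in Villin-Wls cKO tumors (SD, n = 5 each), a log2 change of 0.28 (SE 0.10, adjusted p = 0.104 in limma). Sdhb, the iron-sulfur subunit, was at 96.1 ± 4.67 and 111 ± 14.6 FPKM (SD, n = 5 each). In Villin-Wls cKO tumors 1 to 5 Sdhb was at 100.2, 104, 119, 99.0 and 133 FPKM, so that only tumors 3 and 5 lay above the highest control tumor at 104.1 FPKM. Sdha, the flavin-bearing catalytic subunit, had the smallest change of complex II (0.08, SE 0.14) and was at -0.0569 with the same FPKM sum without the Eef1a1 entries and at -0.0357 with quantile normalization.

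In complex III, the cytochrome bc1 complex, all 8 members had a change above 0 in the deposited FPKM, with a median of 0.22 (0.083 with the same FPKM sum without the Eef1a1 entries and 0.087 with quantile normalization, where Uqcr10 was at -0.039), and 1 was called. Uqcrb, which encodes a small subunit that helps to form the coenzyme Q site (ENSMUSG00000021520.4, chromosome 13 from 66900617 to 66905378, minus strand, GRCm38), was at 139, 143, 136, 143 and 152 FPKM in control tumors 1 to 5. In Villin-Wls cKO tumors 1 to 5 it was at 185, 159, 165, 181 and 172 FPKM, every one of them above the highest control tumor. Its mean rose from 142 ± 6.10 to 172 ± 10.7 FPKM (SD, n = 5 each), a log2 change of 0.27 (SE 0.06, 95% confidence interval 0.14 to 0.41, adjusted p = 0.0166 in limma). Unlike most members, Uqcrb was highest in Villin-Wls cKO tumors 1 and 4 rather than 5. The call was kept with each tumor left out in turn, and it was lost with quantile normalization (0.16, adjusted p = 0.193 in limma) and with the same FPKM sum without the Eef1a1 entries (0.13, adjusted p = 0.245 in limma). Uqcr11, another small subunit, was at 244 ± 8.74 and 291 ± 28.9 FPKM (SD, n = 5 each), with a change of 0.24 (SE 0.075, adjusted p = 0.0640 in limma). Uqcrc1, a core protein of the matrix side, was at 153 ± 15.1 and 182 ± 22.3 FPKM (SD, n = 5 each), and Uqcrfs1, the Rieske iron-sulfur protein, at 120 ± 6.34 and 139 ± 18.4 FPKM (SD, n = 5 each). Neither was called (adjusted p = 0.135 and 0.183 in limma), although 3 and 4 Villin-Wls cKO tumors lay above all control tumors. Cyc1, the cytochrome c1 of the same complex, which the name rule does not include, had a change of 0.25 (SE 0.099, adjusted p = 0.148 in limma).

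Complex IV, cytochrome c oxidase, had a median change of 0.23 (0.089 with the same FPKM sum without the Eef1a1 entries, 0.042 with quantile normalization and 0.15 without control tumor 1) and also held the 2 members that lay lowest. Of its 14 names, 11 had a change above 0, and none was called in either direction. Cox5b, a structural subunit found in all tissues, was at 84.4, 54.0, 72.0, 59.1 and 70.5 FPKM in control tumors 1 to 5 and at 97.9, 75.3, 73.4, 82.5 and 109 FPKM in Villin-Wls cKO tumors 1 to 5. The groups overlapped through control tumor 1, and the change of 0.36 (SE 0.14) had an adjusted p of 0.141 in limma. Cox6b1 was at 1728 ± 154 and 2099 ± 270 FPKM (SD, n = 5 each), with 4 of 5 Villin-Wls cKO tumors above all control tumors (0.28, SE 0.11, adjusted p = 0.147 in limma).

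Isoforms of complex IV subunits that are best known from particular tissues varied in level and direction. Cox8b, the isoform of muscle and brown fat, was at 3.25, 2.90, 0.549, 0 and 0.553 FPKM in control tumors 1 to 5 and was listed at 0 in 4 Villin-Wls cKO tumors, with 0.491 FPKM in tumor 1. Its control mean came from tumors 1 and 2, and the change of -0.95 (SE 0.38) had an adjusted p of 0.148 in limma. Its general counterpart Cox8a was at 715 ± 128 and 779 ± 205 FPKM (SD, n = 5 each). Cox4i2, an isoform known from lung and induced by low oxygen, was at 2.89, 0.856, 1.34, 0.853 and 1.36 FPKM in control tumors and at 0.809, 0.649, 1.01, 0.716 and 0.668 FPKM in Villin-Wls cKO tumors. It lay below all control tumors in 4 of 5 Villin-Wls cKO tumors, with a change of -0.42 (SE 0.20, adjusted p = 0.209 in limma), and -0.24 without control tumor 1. Both genes were close to the lowest level tested, and Cox4i1, the general counterpart of Cox4i2, was not analysed here. Cox7a1, the isoform of heart and skeletal muscle, was not low: it was at 43.5 ± 9.59 and 54.6 ± 19.1 FPKM (SD, n = 5 each), from 26.8 FPKM in Villin-Wls cKO tumor 2 to 76.3 FPKM in Villin-Wls cKO tumor 1. Cox7a2, the general form, was at 333 ± 20.2 and 394 ± 54.8 FPKM (SD, n = 5 each), and the related Cox7a2l at 114 ± 15.4 and 110 ± 11.8 FPKM. Cox6a1 was at 625 ± 85.8 and 770 ± 179 FPKM, and Cox6b2, the testis isoform, at 6.61 ± 2.04 and 7.12 ± 2.90 FPKM (SD, n = 5 each). The skeletal muscle markers Ckm, Acta1, Myh4 and Tnnt3 were not analysed here. Of 6 smooth muscle markers, all had a change above 0 and none was called, with summed levels of 64.9 to 151 FPKM in control and 83.2 to 163 FPKM in Villin-Wls cKO tumors.

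In complex V, 15 of 18 names had a change above 0, with a median of 0.18 (0.065 with the same FPKM sum without the Eef1a1 entries and 0.024 with quantile normalization). The 5 subunits of the F1 head, which makes ATP, had a median of 0.15, and the 10 subunits of the membrane part and the stalks a median of 0.23. Atp5g1 encodes the c subunit of the proton-driven rotor ring (ENSMUSG00000006057.15, chromosome 11 from 96068852 to 96075670, minus strand, GRCm38). It was at 48.8, 58.2, 64.7, 55.5 and 55.6 FPKM in control tumors 1 to 5 and at 67.1, 77.5, 71.1, 62.4 and 89.1 FPKM in Villin-Wls cKO tumors 1 to 5. In 4 of the 5 Villin-Wls cKO tumors it was above all control tumors, tumor 4 being the exception, and its mean rose from 56.6 ± 5.71 to 73.4 ± 10.4 FPKM (SD, n = 5 each). The log2 change of 0.36 (SE 0.10, 95% confidence interval 0.13 to 0.60) had an adjusted p of 0.0497 in limma, just under the threshold. Over the 23 alternatives tried the adjusted p lay between 0.0322 and 0.162 in limma, and Atp5g1 was past the threshold in 9 of them.

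The c subunit is encoded by 3 genes with the same mature protein, and Atp5g1 was not the main source. Atp5g3 was at 733 ± 51.0 FPKM in control and 885 ± 140 FPKM in Villin-Wls cKO tumors (SD, n = 5 each), with a change of 0.26 (SE 0.11, adjusted p = 0.173 in limma). Atp5g2 was at 2.11 ± 0.518 and 2.72 ± 1.36 FPKM, under a locus whose values it shares with Mir688. Atp5b and Atp5a1, the beta and the alpha subunit of the head, were at 1054 ± 46.1 and 1149 ± 111 FPKM and at 480 ± 37.1 and 549 ± 81.9 FPKM (SD, n = 5 each), with changes of 0.12 (SE 0.08) and 0.19 (SE 0.10) that were not called (adjusted p = 0.402 and 0.296 in limma). The change of Atp5b was -0.15 with quantile normalization. The pseudogene Atp5k-ps2 (0.37, SE 0.16) and Atp5l (0.37, SE 0.16) had the highest log2 changes of all members without being called (adjusted p = 0.177 and 0.185 in limma). Atp5l was at most 0.902 FPKM in any tumor and listed at 0 in control tumor 5.

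**Figure D4:**
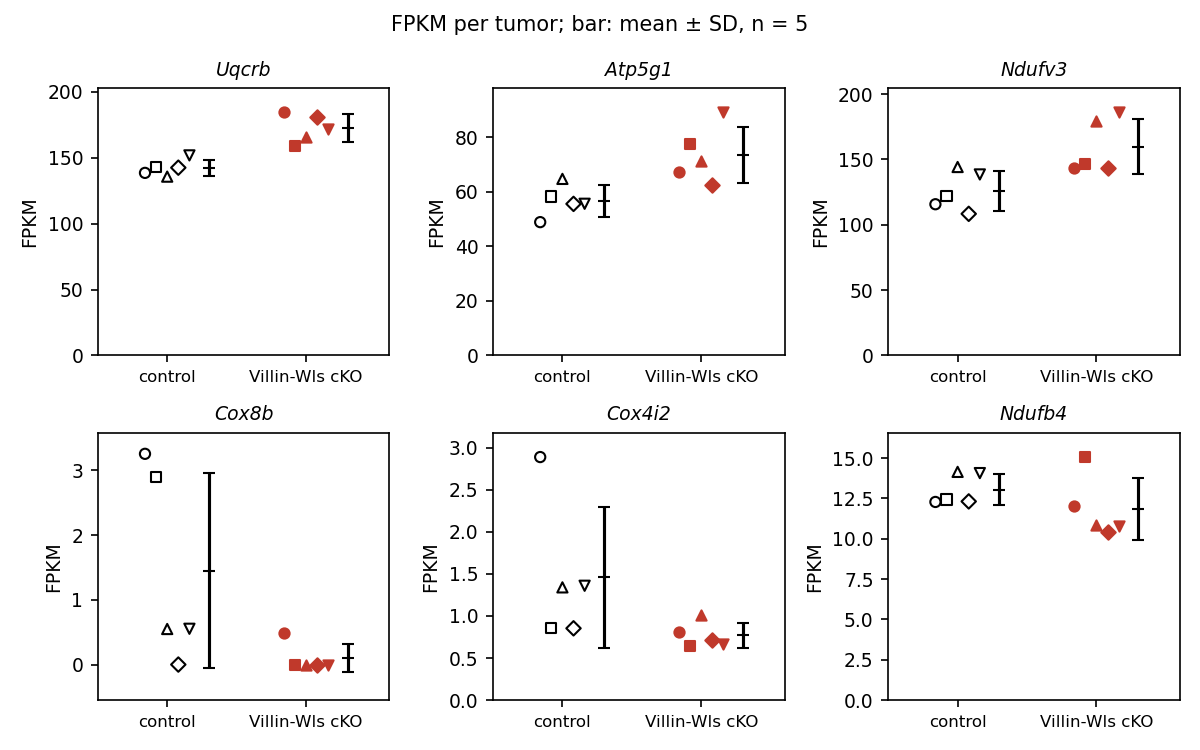
FPKM (y axis, linear) of 6 members in each control tumor (open) and Villin-Wls cKO tumor (filled, red), with a marker shape for each tumor number and bars for mean ± SD (n = 5 tumors). Uqcrb does not overlap between the groups (136 to 152 against 159 to 185 FPKM), Atp5g1 and Ndufv3 overlap in 1 control tumor, Cox8b is listed at 0 in 4 Villin-Wls cKO tumors, and Ndufb4 is highest in Villin-Wls cKO tumor 2 (15.1 FPKM).

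The mitochondrially encoded subunits had changes close to 0. The table held mt-Nd1, mt-Nd2 and mt-Cytb, of which the first 2 shared all values and count as 1. mt-Cytb was at 4486 ± 701 FPKM in control and 4497 ± 915 FPKM in Villin-Wls cKO tumors (SD, n = 5 each), with a change of -0.0080 (SE 0.17), and mt-Nd1 had a change of -0.010 (SE 0.17). With these standard errors a difference of the size of the nuclear median was not detectable, and the difference between nuclear and mitochondrial members was not tested.

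Other gene groups of the mitochondrion had median changes between 0.06 and 0.17 in the deposited FPKM. Their medians and calls are given on this scale only. Under the other scalings the median over all genes ran from -0.11 to 0.10. The calls of these groups stand beside 6.12% of all genes called higher and 4.75% called lower in limma. Called higher were 4.76% of the assembly factors, 6.67% of the electron carrier and coenzyme Q genes, 7.69% of the TCA cycle genes and 1.23% of the mitochondrial ribosome names. Of 42 assembly factors outside the name rule, 2 were called higher and none lower in limma, with a median change of 0.08: Acad9, which assembles complex I, at 30.6 ± 0.645 and 36.4 ± 1.68 FPKM (0.25, adjusted p = 0.0157), and Slirp, which stabilizes mitochondrial mRNA, at 120 ± 9.31 and 145 ± 9.78 FPKM (0.27, adjusted p = 0.0338; SD, n = 5 each). Of 15 genes of electron carriers and coenzyme Q synthesis 1 was called higher, Pdss1, which builds the side chain of coenzyme Q (0.58, SE 0.14, adjusted p = 0.0281 in limma), and the median was 0.17. Of 13 TCA cycle genes 1 was called higher, Dlst of the 2-oxoglutarate dehydrogenase complex (0.22, SE 0.058, adjusted p = 0.0371 in limma), and the median was 0.16. Citrate synthase, Cs, was at 107 ± 8.80 and 122 ± 12.1 FPKM (SD, n = 5 each; 0.18, adjusted p = 0.185 in limma). Of 81 names of the mitochondrial ribosome 1 was called higher, the pseudogene Mrps36-ps2, and 1 lower, Mrps12 (-0.35, SE 0.078, adjusted p = 0.0167 in limma), with a median of 0.09. Of 8 membrane carriers, channels and uncoupling genes, Slc25a4, an ADP/ATP carrier best known from heart and muscle, was called lower, from 104 ± 13.9 to 79.1 ± 8.77 FPKM (SD, n = 5 each; -0.38, adjusted p = 0.0488 in limma), and the median was 0.09.

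None of 14 factors of mitochondrial biogenesis was called in limma. At an unadjusted p under 0.05 in limma 2 of the 14 were higher, where 13.9% of all genes were. Ppargc1b, a coactivator of respiratory genes, was at 1.02 ± 0.376 and 1.97 ± 0.569 FPKM (SD, n = 5 each; 0.55, SE 0.17, adjusted p = 0.0637 in limma). Esrra, a nuclear receptor that acts with it, was at 50.4 ± 7.37 and 62.1 ± 10.3 FPKM (SD, n = 5 each; 0.29, adjusted p = 0.185 in limma). Ppargc1a was at 7.81 ± 2.31 and 8.45 ± 2.25 FPKM, Nrf1 at 14.1 ± 1.49 and 14.2 ± 1.71 FPKM, and Tfam, which binds mitochondrial DNA, at 32.4 ± 5.28 and 31.3 ± 4.66 FPKM (SD, n = 5 each). These 3 differed by less than the spread between tumors.

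Promoters were compared for motifs that are known from respiratory genes, because most subunits correlated with the mean of the others over the tumors. RefSeq promoter windows (GRCm38.p6, 250 bases before to 50 bases after the transcription start) were given for 72 of the 89 members and for 27025 genes in all, and letters were searched on both strands. No motif contains another. The 27025 genes are not limited to those expressed in the tumors, and they were not matched to the members for level or GC content. The NRF1 letters, GCGCA, any base and GCGC in 1 run, were found for 19 members (26.4%), against 5.19% of all genes, and the YY1 letters AAGATGGCG for 7 (9.72%), against 1.64%. The ETS letters CCGGAAGT, which GABPA can bind, were found for 5 members (6.94%), against 4.31%, and the ERR letters TCAAGGTCA for 2 (2.78%), against 0.466%. By complex, NRF1 letters were found for 9 of 39 members of complex I, 2 of 3 of complex II, 1 of 5 of complex III, 1 of 12 of complex IV and 6 of 13 of complex V. The median log2 change was 0.18 over the 19 members with these letters and 0.15 over the 53 without. It was 0.11 over the 5 members with the ETS letters and 0.16 over the 67 without, 0.17 over the 7 with the YY1 letters and 0.16 over the 65 without, and 0.22 over the 2 with the ERR letters and 0.16 over the 70 without. These differences were not tested.

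The 150 bases before the first annotated base of 4 members are printed 5′ to 3′ on the minus strand, which is the strand of each gene, with the NRF1 letters in capitals. They are Cox6a1 (0.28) and Ndufb4 (-0.14), which hold NRF1 letters and whose changes lie on opposite sides of 0, and Atp5g1 (called higher) and Cox8b (the lowest member), whose windows hold none of the 4 motifs. The stretches lie at chr5:115348982-115349131, chr16:37654454-37654603, chr11:96075671-96075820 and chr7:140900447-140900596. They lie outside annotated transcripts in GENCODE M21, except that the far end of the Cox6a1 stretch touches an exon of the long noncoding RNA Gm42903 on the other strand.
Cox6a1: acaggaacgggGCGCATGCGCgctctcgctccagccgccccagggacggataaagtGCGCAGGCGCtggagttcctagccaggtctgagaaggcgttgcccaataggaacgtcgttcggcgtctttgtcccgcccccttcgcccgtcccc
Ndufb4: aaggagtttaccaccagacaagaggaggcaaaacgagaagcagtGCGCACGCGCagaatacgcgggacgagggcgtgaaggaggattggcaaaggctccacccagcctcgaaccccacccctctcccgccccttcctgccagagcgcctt
Atp5g1: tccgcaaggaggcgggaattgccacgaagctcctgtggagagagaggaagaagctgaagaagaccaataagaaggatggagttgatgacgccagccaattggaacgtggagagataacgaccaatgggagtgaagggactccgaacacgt
Cox8b: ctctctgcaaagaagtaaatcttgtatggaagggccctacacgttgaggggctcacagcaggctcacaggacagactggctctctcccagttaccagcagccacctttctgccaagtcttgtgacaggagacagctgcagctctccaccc
Of these bases 66.7% were G or C for Cox6a1, 62.0% for Ndufb4, 52.7% for Atp5g1 and 55.3% for Cox8b. The Ndufb4 window held the NRF1 letters at 2 further positions closer to the start than the stretch shown.

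Markers of the cell types in the tumors moved in part with the groups. Over all genes tested, 6.12% were called higher and 4.75% lower in limma. All 10 colon epithelium markers had a change above 0 and 1, Krt20, a keratin of differentiated cells, was called higher in limma (0.91, SE 0.20, adjusted p = 0.0156), with summed levels of 6714 to 9743 FPKM in control and 8485 to 12144 FPKM in Villin-Wls cKO tumors. Of 5 T cell markers, 3 were called higher, with sums of 4.62 to 9.19 and 10.3 to 31.9 FPKM. Of 6 squamous markers 1 was called higher (Sprr1a), with sums of 80.3 to 192 and 113 to 1407 FPKM. No marker of fibroblasts (6 tested), endothelial cells (4), B and plasma cells (3), macrophages (4), neutrophils (4) or erythrocytes (2) was called. The sums over neutrophil markers were 133 to 645 FPKM in control and 417 to 1068 FPKM in Villin-Wls cKO tumors, and those over B and plasma cell markers 24.7 to 119.9 and 64.0 to 339 FPKM. The part of these cell types in the shift of the respiratory genes was not tested.

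Of the members, 3 lie on the X chromosome: Cox7b (0.32, SE 0.14), Ndufa1 (0.02, SE 0.12) and Ndufb11 (-0.087, SE 0.10). Without them the median over 86 members was 0.16.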

How the data were processed

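Total RNA of 10 macrodissected mouse colon tumors, 5 control and 5 Villin-Wls cKO, was sequenced from stranded mRNA libraries. According to the submitters' processing notes the tools were FastQC, TopHat2 2.1.1, Cufflinks 2.2.1 and Cuffdiff on GRCm38.p5. The deposited values are FPKM, 1 per gene name and tumor, which the authors normalized for transcript length and library size. The annotation release and any use of strand in quantification are not given in the sources used here. Read counts cannot be had from them, so depth is unknown and precision rests on the spread between tumors.

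The scale was log2(FPKM + 1), fitted with limma 3.58.1 (R 4.3.3, eBayes with a variance trend, no covariate, two-sided) over the 16757 names with a mean of at least 0.5 FPKM, with Benjamini-Hochberg adjustment over all of them and a threshold of 0.05. A change on this scale is understated for low genes. The fit was tested on simulated data, with genes drawn independently and planted changes larger than that of any member. How well it calls changes of the members' size was not tested. Summaries and figures used Python 3.11.15, numpy 2.4.6, pandas 2.3.3 and matplotlib 3.10.9. Positions are those of GENCODE M21 (GRCm38), in which 88 of the 89 members were found, and promoter sequences are RefSeq's (GRCm38.p6). The members and gene lists were chosen with earlier results of these data known, so that no set test or p over the members was computed.

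Members named are those past the threshold, the 5 highest and the 5 lowest by log2 change, the most abundant of each complex, 8 catalytic subunits (1 more is not reported here), and the isoform groups of Cox4, Cox6a, Cox6b, Cox7a, Cox8, Ndufa4 and Atp5g, 32 in all. Ndufa8, Uqcr11 and the other members mentioned beside them were chosen after their values were seen. Alternatives were a pseudocount of 0.1, no filter or a mean of at least 5 FPKM, 4 scalings, no variance trend, the replicate number as a block, quality weights per tumor, identical entries counted once, each tumor left out, tumors 2 and 3 left out together, and the trend on GC content and transcript length removed (available for 95.1% of tested names).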

Additional observations from a re-analysis of the deposited data

Results flagged for a closer look

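Each of 76 groups of 5 tumors (32 named members and 6 sets of members, in each genotype) was examined for 1 tumor far from the other 4, and 3 were found, where chance gives about 1 in 20. Cox8b was at 0.491 FPKM in Villin-Wls cKO tumor 1 and listed at 0 in the other 4. Cox4i2 was at 2.89 FPKM in control tumor 1, against 0.853 to 1.36 FPKM in the other control tumors. Atp5a1 was at 545 FPKM in control tumor 3, against 451 to 472 FPKM in the other control tumors.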

How the results depend on the processing

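The 2 members called higher in limma (2.25%, against 6.12% of all genes) became 18 with the tumors brought to an equal FPKM sum (20.2%, against 8.29%). They became 0 with that rescaling without the Eef1a1 entries (against 4.58%) and 0 with quantile normalization (against 5.34%). The count was 1 without the variance trend (the share over all genes is not reported here) and 1 without Villin-Wls cKO tumors 2 and 3 (1.12%, against 3.9%). The median over the members of 0.16 became 0.26, 0.028 and 0.025 under the 3 scalings, in that order. With each tumor left out in turn, 1 to 4 members were called: 4 without control tumor 3 or Villin-Wls cKO tumor 4, and 1 without control tumors 1, 2, 4 or 5 or Villin-Wls cKO tumors 3 or 5. Of the 16757 genes tested, 1231 to 1983 were called in either direction in these fits. The number was 1983 without control tumor 3 and 1562 without Villin-Wls cKO tumor 4. The median over the members then lay between 0.11 and 0.17. Uqcrb was called with each tumor left out, and Atp5g1 only without control tumor 3 and without Villin-Wls cKO tumor 4. Without control tumor 1 the complex IV median of 0.23 was 0.15. No member was called lower under any alternative. Named members below the threshold changed sign, in no case past it. With the same FPKM sum this held for Cox7a2l (0.0523), and without the Eef1a1 entries for Atp5b (-0.0203), Ndufs1 (-0.0352), Ndufv1 (-0.0760), Sdha (-0.0569), Cox6b2 (-0.0543) and Cox8a (-0.0390). With quantile normalization it held for Ndufa4 (-0.0783), Uqcr10 (-0.0390), Atp5b (-0.15), Ndufv1 (-0.0268), Sdha (-0.0357) and Cox8a (-0.13). It held without Villin-Wls cKO tumors 2 and 3 for Ndufv1 (-0.0229), Cox6b2 (-0.21) and Ndufa4l2 (-0.18), and with the GC and length trend removed for Sdha (-0.00377). With each tumor left out, Cox7a2l lay between -0.11 and 0.0089, Cox6b2 between -0.12 and 0.20, Ndufa4l2 between -0.040 and 0.26 and Cox8a between -0.017 and 0.24. The cause of these changes was not tested. Correlations of same-numbered tumors, with group means removed, lay between -0.087 and 0.16. Those of different-numbered tumors were not computed, so whether the replicate numbers pair the tumors was not tested. With the replicate number as a block 3 members were called (3.37%, against 5.91% of all genes called higher): Ndufa8, Ndufv3 and Uqcrb. With the GC and length trend removed 3 were called as well (3.41%, against 6.71% of all genes called higher), Ndufa8, Uqcr11 and Uqcrb. The unknown read depth limits what can be said of members near 1 FPKM, such as Cox8b, Cox4i2, Atp5l and Ndufa4l2.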
